A study of Musculus with 2 samples.

Results

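The cells described here are the Rgs5 mural cells of mouse subcutaneous white adipose tissue (sWAT). They were chosen by their own transcript counts. Barcodes with at least 500 genes detected were kept if mitochondrial genes gave no more than 10% of their unique molecular identifiers (UMIs, 1 per captured transcript). Among the kept barcodes, a cell was taken when it had 3 or more UMIs of Rgs5. This regulator of G-protein signalling is the best known pericyte transcript. Acta2 (smooth muscle actin), Myh11 (smooth muscle myosin heavy chain) and Notch3 (the Notch receptor of vessel walls) had to sum to 2 or more. The cell also had no UMI of Ptprc, the leukocyte antigen CD45, and fewer than 10 of Dcn, the fibroblast proteoglycan decorin. This gave 245 of 24090 kept barcodes. Of these, 217 (88.6%) also carried Cdh5 or Pecam1, the VE-cadherin and CD31 of endothelial cells, and are called endothelial mixtures below. The remaining 28 cells carried neither and form the main group, called mural cells. Everything said about these cells rests on 28 barcodes.

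Fat pads had been digested with type I collagenase, passed through a 100 µm filter and freed of red cells, which yields the stromal vascular cells without mature adipocytes. The LPCAT3-AKO library (genotype LPCAT3 knockout) gave 18 mural cells and 121 mixtures, and the control library (genotype WT) gave 10 mural cells and 96 mixtures. LPCAT3 is an acyltransferase that puts polyunsaturated fatty acids into phospholipids. The labels give both groups of mice as 5 weeks old, while the series text speaks of 2 months; the labels and series text name neither the driver of the deletion nor the exons removed nor the number of mice per library. With 1 library per genotype there is no replicate, so no test between genotypes was possible. All intervals below are 95% intervals for counting error alone, and differences between animals are not covered by them.

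Mural cells sit on the outer face of the endothelium. Pericytes share the basement membrane of capillaries with endothelial cells and are recruited through the PDGF receptor beta, whereas vascular smooth muscle cells ring arterioles, arteries and veins, contract through actin and myosin and relax when nitric oxide raises cyclic GMP. Notch3, fed by ligands on the endothelium, keeps both kinds differentiated. In fat they have also been described as a source of fat cell precursors.

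The LPCAT3-AKO library held 12806 barcodes with 119355147 UMIs, and the control library 13831 barcodes with 111669076 UMIs. The libraries shared 58 barcode sequences, 1 of them in a cell chosen here. Mural cells were shallow, with a median of 3657.5 UMIs (range 901 to 9892) and 1701 genes in LPCAT3-AKO and 2585.5 UMIs (range 1535 to 10365) and 1367.5 genes in control. Their summed UMIs came to 72047 and 40834, and levels are given below as CPM, the usual scaling of a gene's UMIs to the summed UMIs of its group; 1 UMI reads as 13.9 CPM in LPCAT3-AKO and 24.5 CPM in control. The share of mitochondrial UMIs had a median of 6.44% in LPCAT3-AKO and 4.20% in control mural cells. For comparison, 225 endothelial cells (with both Cdh5 and Pecam1 and fewer than 3 Rgs5 UMIs), 11465 stromal cells (10 or more Dcn UMIs) and 6531 leukocytes (2 or more Ptprc UMIs) were taken from the same libraries.

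The label held against markers that had no part in the choice. Of the 11 mural markers outside the rule, all but Cnn1 had UMIs in both libraries. Cnn1, smooth muscle calponin, had none in any of the 28 cells, which allows up to 41.6 CPM in LPCAT3-AKO and 73.5 CPM in control. The 11 mural markers outside the rule summed to 7079 CPM in LPCAT3-AKO and 5412 CPM in control mural cells, against 1171 and 1233 CPM in endothelial cells of the same libraries. Ndufa4l2, which encodes a mitochondrial protein induced by low oxygen and is a marker of mural cells, was the strongest of these by contrast. It stood at 958 CPM (95% interval 745 to 1212) in LPCAT3-AKO and 637 CPM (416 to 933) in control mural cells, against 17.5 and 26.7 CPM in endothelial cells. It was found in 15 of 18 LPCAT3-AKO and 6 of 10 control mural cells, and in 0.288% of LPCAT3-AKO and 0.353% of control leukocytes, which have median depths of 8656 and 7699 UMIs and show the level that free RNA can leave. When every cell was thinned to 2000 UMIs, Ndufa4l2 was seen in 11 of 14 LPCAT3-AKO and 3 of 7 control mural cells.

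Markers of other cells were low but not all at 0. Schwann cell markers had no UMI in the 28 cells and epithelial markers had 1, in LPCAT3-AKO. The 8 stromal markers summed to 777 CPM in LPCAT3-AKO and 1224 CPM in control mural cells, against 23487 and 23239 CPM in stromal cells. The 8 leukocyte markers summed to 250 CPM and 245 CPM, against 15935 and 16030 CPM in leukocytes. The part of these in the results was not tested.

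The endothelial mixtures carried both sets of markers in the same barcode. The 10 endothelial markers outside the rule reached 86.5% of their endothelial level in LPCAT3-AKO mixtures and 80.7% in control mixtures. The 11 mural markers outside the rule reached 34.3% of their mural level in LPCAT3-AKO mixtures and 37.2% in control mixtures. In mural cells the endothelial markers stood at 3.86% of the endothelial level in LPCAT3-AKO and 5.83% in control. Esam, an adhesion molecule of endothelial junctions, carried most of that, with 319 and 490 CPM; without it the level was 0.620% and 1.05%.

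**Figure D1:**
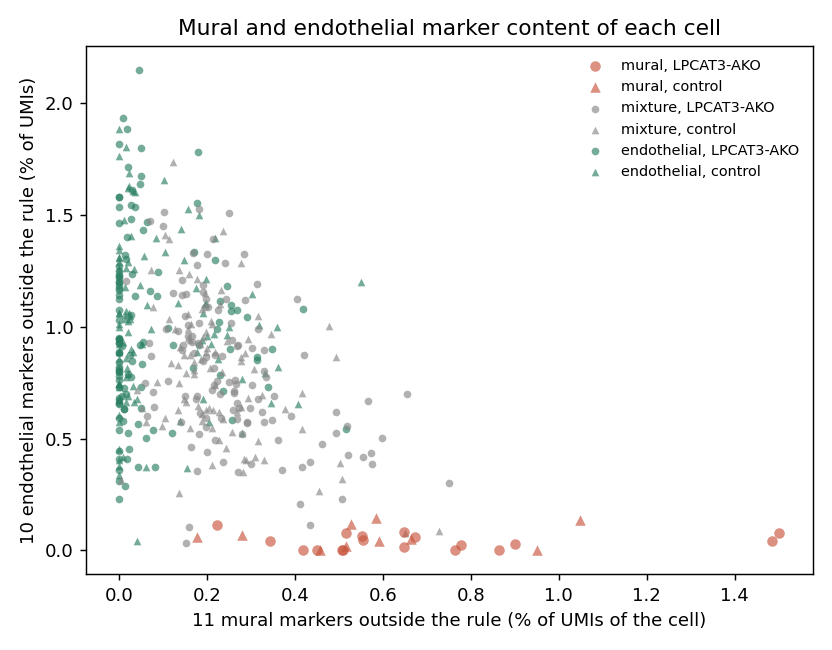
Each point is 1 cell: the horizontal axis gives the percentage of its UMIs from the 11 mural markers outside the rule, and the vertical axis that from the 10 endothelial markers outside the rule. Mural cells lie along the bottom (at most 0.146% endothelial). Most endothelial cells lie toward the left, but some reach 0.517% (LPCAT3-AKO) and 0.550% (control) mural markers. Mixtures had medians of 0.742% (LPCAT3-AKO) and 0.801% (control) endothelial and 0.232% and 0.198% mural. They overlap the endothelial cells, and their lowest endothelial values, 0.0303% and 0.0766%, fall within the range of the mural cells.

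Mixtures were also the deeper barcodes, with medians of 12612 UMIs in LPCAT3-AKO and 14437 UMIs in control. A median mural cell and a median endothelial cell together would hold 10249.5 UMIs in LPCAT3-AKO and 9547 UMIs in control. Scrublet, a doublet caller, placed 7 of 121 LPCAT3-AKO and 14 of 96 control mixtures among its top-scoring barcodes, and none of the 18 and 10 mural cells. What share of the mixtures were doublets was not tested. A shallow cell can miss Cdh5 and Pecam1. At the level of the mixtures, those genes together would give 6.88 UMIs in the median LPCAT3-AKO mural cell and 4.42 in the median control one, but 1.70 and 2.63 in the shallowest.

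Some cells lay close to the thresholds. Among mural cells, 2 in LPCAT3-AKO and 1 in control had exactly 3 Rgs5 UMIs, and no further cell had 2. For the sum of Acta2, Myh11 and Notch3, 2 LPCAT3-AKO cells and no control cell lay at exactly 2, while 4 and 3 cells with a sum of 1, and 2 and 3 with a sum of 0, stayed outside. Another 3 and 4 cells were left out for 10 or more Dcn UMIs and 4 and 4 for a Ptprc UMI. With a sum of 1 let in, a choice made after seeing the data, the group held 22 LPCAT3-AKO and 13 control cells.

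Mural cells made up 0.154% (0.0915 to 0.244) of kept barcodes in LPCAT3-AKO and 0.0805% (0.0386 to 0.148) in control. The ratio of the shares was 1.92, with a counting interval of 0.839 to 4.65 that includes 1. With a limit of 5% mitochondrial UMIs in place of 10%, 5 LPCAT3-AKO and 7 control cells were left and the ratio was 0.761, so its direction depends on that limit. All chosen cells together gave a ratio of 1.4 (1.08 to 1.82), and endothelial cells, which the rule did not choose, 1.20 (0.913 to 1.57). In a digest, the number of cells in the tissue and the number that came free cannot be told apart.

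The genes used by the rule describe how the cells were chosen. Rgs5 was found at a lowest, median and highest of 3, 24.5 and 102 UMIs per cell in LPCAT3-AKO and 3, 28.5 and 59 UMIs in control. Acta2 ranged from 0 to 64 UMIs with a median of 5.5 in LPCAT3-AKO, and from 0 to 40 with a median of 7.5 in control. Myh11 was the most uneven, with 82 UMIs in 11 of 18 LPCAT3-AKO cells and 13 UMIs in 6 of 10 control cells. Notch3 was the most even, at 0, 4 and 8 UMIs in LPCAT3-AKO and 1, 3 and 9 UMIs in control. The ranges of the genotypes overlapped for each of these genes.

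**Figure D2:**
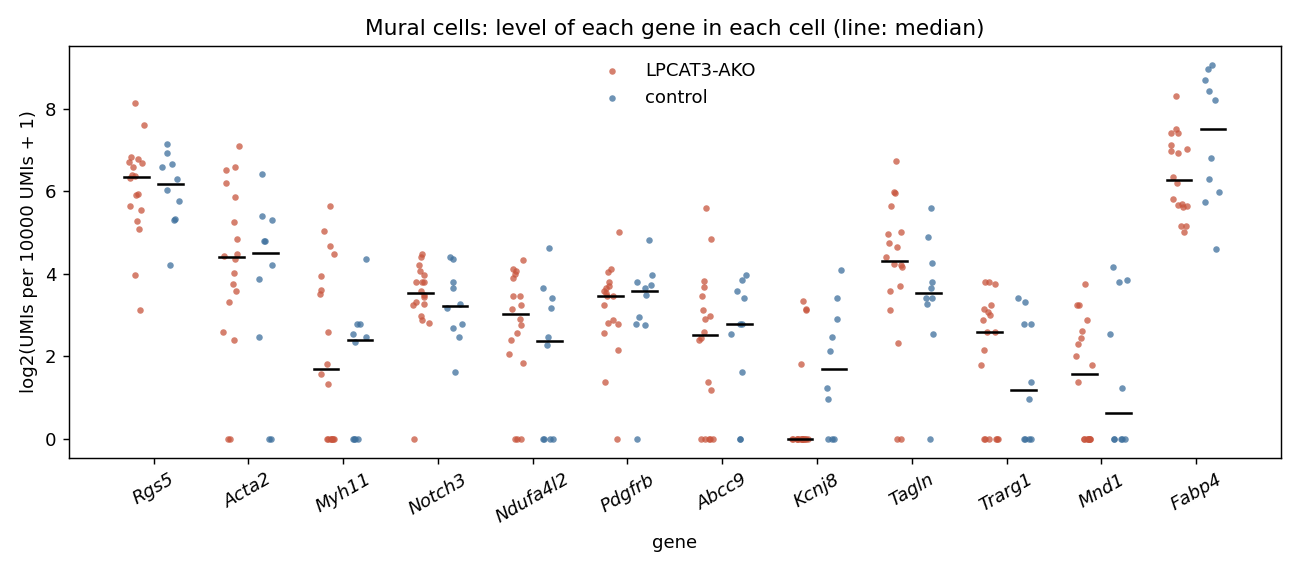
Each point is 1 mural cell (LPCAT3-AKO, 18 cells, left of control, 10 cells, for each gene); the vertical axis gives log2 of UMIs per 10000 plus 1, and the line the median. Rgs5 and Fabp4 were present in all 28 cells, while Myh11 and Kcnj8 were at 0 in many cells of both libraries.

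To describe what these cells share beyond the rule, genes at 100 CPM or more in mural cells of both libraries were set against the highest of the endothelial, stromal and leukocyte levels. Of 1137 such genes, 37 (3.25%) were at least 4 times higher in mural cells in both libraries, 4 of them rule genes. The rule chose these cells by their transcripts, so the list is a description. Endothelial cells were the highest comparison group for 30 of them. Of the pericyte list, 12 of 20 members at that level were among them, with the rule genes Rgs5 and Notch3. Of the contractile list 7 of 18 were, with the rule genes Acta2 and Myh11, beside 3.25% of all 1137 genes.

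Tissue isoforms of respiratory chain subunits were among them. Besides Ndufa4l2, Cox4i2, the oxygen-regulated isoform of cytochrome c oxidase subunit IV, stood at 167 CPM in LPCAT3-AKO and 294 CPM in control mural cells, against 7.79 and 6.15 CPM in endothelial cells. Cox4i1, the common isoform of that subunit, was at 749 and 784 CPM in mural cells and 648 and 717 CPM in endothelial cells. Ndufa4, the widespread relative of Ndufa4l2, went the other way: 41.6 and 147 CPM in mural cells (3 and 6 UMIs) and 369 and 413 CPM in endothelial cells. Higd1b, a pericyte marker, just missed the contrast in control, with 541 CPM in LPCAT3-AKO and 147 CPM in control mural cells, against 22.4 and 36.9 CPM in endothelial cells.

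Genes that govern the relaxation of vessels were also on the list. Gucy1a1 and Gucy1b1 encode the chains of the soluble guanylate cyclase that nitric oxide activates. Gucy1a1 stood at 833 CPM in LPCAT3-AKO and 490 CPM in control mural cells, against 54.5 and 59.5 CPM in endothelial cells. Gucy1b1 stood at 403 and 122 CPM, against 29.2 and 21.5 CPM. Prkg1, the kinase that cyclic GMP activates, was at 305 and 122 CPM in mural cells and 21.4 and 23.6 CPM in endothelial cells, and Pde5a, which breaks cyclic GMP down, at 167 and 269 CPM, against 38.0 and 39.0 CPM. Of the 16 genes of nitric oxide and cyclic GMP signalling, 6 were at 100 CPM in both libraries and 5 of these met the 4-fold contrast: these 4 and the phosphodiesterase Pde3a, beside 3.25% of all 1137 genes at that level.

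Kcnj8 and Abcc9, the pore and regulatory subunit of the ATP-sensitive potassium channel that relaxes mural cells, were both on the list. Abcc9 had 652 CPM in LPCAT3-AKO and 686 CPM in control mural cells, against 160 and 144 CPM in endothelial cells. Kcnj8 had 14 UMIs in 4 of 18 LPCAT3-AKO cells and 17 UMIs in 7 of 10 control cells, and was found in 0.352% and 0.323% of leukocytes. Ano1, a calcium-activated chloride channel that depolarizes smooth muscle, stood at 403 and 245 CPM, against 23.4 and 35.9 CPM in endothelial cells.

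Receptors for signals that constrict vessels differed among themselves. Ednra, the endothelin receptor of smooth muscle, was at 180 CPM in LPCAT3-AKO and 294 CPM in control mural cells, against 13.6 and 5.13 CPM in endothelial cells. Ednrb, its endothelial counterpart, was at 264 and 367 CPM in mural cells, where only 4 LPCAT3-AKO and 2 control cells carried it, and at 1001 and 1033 CPM in endothelial cells. S1pr3, a sphingosine 1-phosphate receptor, stood at 222 and 122 CPM, against 2.92 and 2.05 CPM in endothelial and 18 and 11.6 CPM in stromal cells. Npy1r, the receptor through which sympathetic neuropeptide Y constricts vessels, stood at 375 and 367 CPM in mural cells, against 39.9 and 33.8 CPM in endothelial cells and 37.7 and 47.3 CPM in stromal cells. The alpha-1 adrenergic receptor Adra1a had no UMI. Of 37 vasoactive receptors, 14 reached 20 CPM in either library.

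Genes outside every list included Mnd1, known for its part in meiotic recombination, at 361 CPM in LPCAT3-AKO and 441 CPM in control mural cells, against 16.6 and 18.5 CPM in endothelial cells. Its UMIs came from 10 LPCAT3-AKO and 5 control cells, and mixtures held 123 and 137 CPM. Inpp4b, a phosphoinositide phosphatase, stood at 416 and 343 CPM, against 18.5 and 16.4 CPM. Trarg1, which in mouse fat cells sits on the vesicles that carry the insulin-sensitive glucose transporter, stood at 555 and 196 CPM, against 28.2 and 33.8 CPM in endothelial cells. Slc2a4, the gene of that transporter (GLUT4), had 13 UMIs in 9 of 18 LPCAT3-AKO cells and 1 UMI in 10 control cells. Rgs4, a relative of Rgs5, was at 375 and 563 CPM, against 27.3 and 48.2 CPM, although 60.9% of its control UMIs lay in 1 cell. Of the 18 RGS family genes, Rgs5 and Rgs4 alone reached 100 CPM in mural cells of both libraries.

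**Figure D3:**
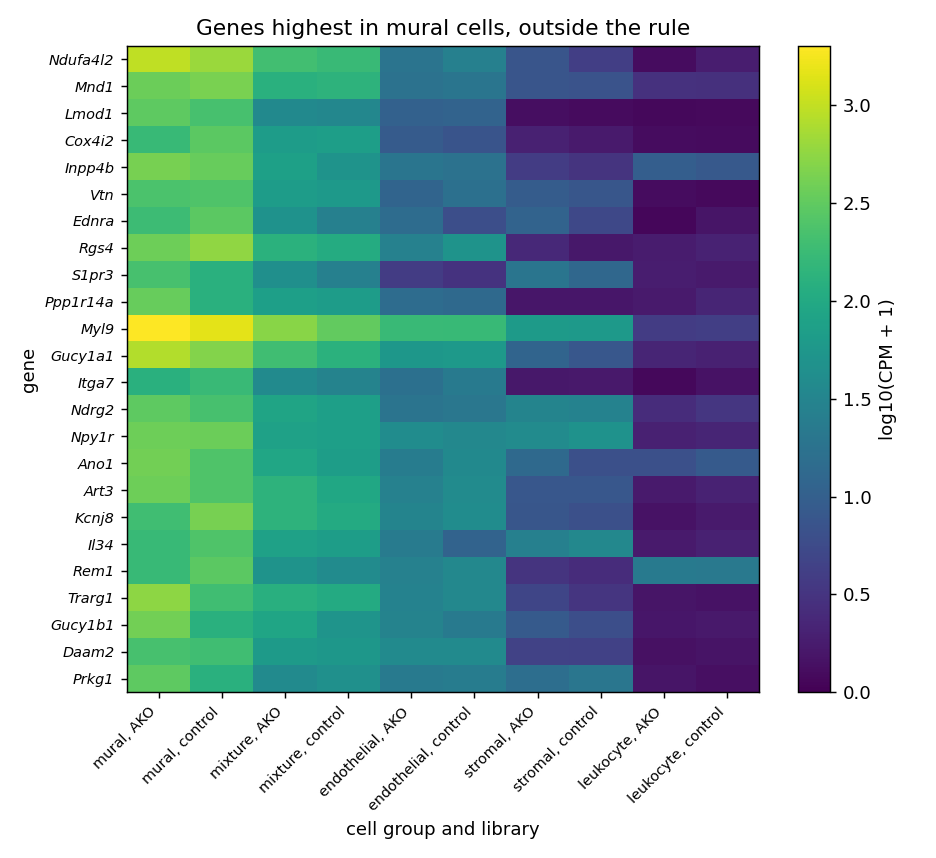
Rows are 24 genes from the contrast of mural cells with the 3 comparison groups, without the rule genes; columns are cell groups, LPCAT3-AKO left of control, and colour gives log10 of CPM plus 1. Levels step down from mural cells to mixtures and again to endothelial cells, as for Ndufa4l2 with 958 and 637, 198 and 175, and 17.5 and 26.7 CPM.

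Matrix and growth factor genes were shared with neighbours. Col4a1, a chain of basement membrane collagen, stood at 2554 CPM in LPCAT3-AKO and 2204 CPM in control mural cells, against 1634 and 1400 CPM in endothelial cells. The 27 basement membrane genes summed to 17502 and 18465 CPM in mural cells, and to 13321 and 12496 CPM in endothelial cells. Vtn (vitronectin) and the laminin receptor chain Itga7 were the members of that list past the 4-fold contrast. Cxcl12, the chemokine that holds CXCR4-bearing cells near vessels, was lower in mural cells, at 333 and 416 CPM, against 2874 and 2606 CPM in endothelial cells. Il34, a ligand of the macrophage receptor CSF1R, was higher, at 167 and 245 CPM. It stood at 22.4 and 10.3 CPM in endothelial cells and at 26.5 and 33.8 CPM in stromal cells. Pdgfb, the endothelial ligand of the PDGF receptor beta, had no UMI in mural cells, while Pdgfrb itself stood at 888 and 1029 CPM and was found in 17 of 18 LPCAT3-AKO and 9 of 10 control cells.

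Fabp4, the fatty acid binding protein of fat cells and capillary endothelium, was among the most abundant transcripts of mural cells. It had 4, 32 and 211 UMIs (lowest, median, highest) per LPCAT3-AKO cell and 4, 89 and 256 UMIs per control cell. This is 11715 CPM and 24000 CPM, against 22007 and 26048 CPM in endothelial cells, 905 and 712 CPM in stromal cells and 179 and 214 CPM in leukocytes. Thinned to 2000 UMIs, it was in all 14 LPCAT3-AKO and all 7 control mural cells, and in 12.2% and 11.2% of leukocytes. Cd36, a fatty acid transporter, followed with 1457 and 1690 CPM in mural cells, against 2364 and 2746 CPM in endothelial cells. Of the 4 adipocyte markers, Plin1, which coats lipid droplets, had 2 UMIs in LPCAT3-AKO mural cells and none in control, and Adipoq, Cidec and Lep had none in either. How much Fabp4 came from endothelial RNA was not tested beyond the level of endothelial markers given above.

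The mural cells were not alike among themselves. They were laid out by Myh11, with 10 cells at 2 or more UMIs (7 LPCAT3-AKO and 3 control), 7 cells at 1 UMI (4 and 3) and 11 cells at 0 (7 and 4). The 7 cells at 1 UMI lie on the cut and were left aside. Median depth was 4388.5 UMIs in the cells with 2 or more and 2960 UMIs in those at 0. The cut uses a gene of the same cells, so what follows describes a range and not cell types.

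The contractile list without the rule genes summed to 26151 CPM in cells with 2 or more Myh11 UMIs and 10839 CPM in cells at 0, a ratio of 2.41 (2.16 to 2.69). The sum was higher in each library, with 31186 against 10977 CPM in LPCAT3-AKO and 16657 against 10669 CPM in control. Tagln, the actin-binding transgelin, gave 3765 against 1115 CPM over both libraries, but the contrast came from LPCAT3-AKO (4971 against 878 CPM), and control had 1493 against 1408 CPM. Tpm1, a tropomyosin that sets myosin access to actin, gave 2379 against 606 CPM and was seen in 9 of 9 against 3 of 8 cells after thinning to 2000 UMIs. Mustn1, a small nuclear protein of muscle, had 25 UMIs from 5 cells against none, at least 7.11-fold higher with 3 counts as the floor.

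The pericyte list without the rule genes ran the other way, at 7965 against 12488 CPM, a ratio of 0.638 (0.557 to 0.729). The potassium channel genes had the strongest contrast in it. Kcnj8 had 2 UMIs in the cells with 2 or more Myh11 UMIs against 27 in those at 0, a ratio of 0.0632 (0.00728 to 0.252), and Abcc9 had 10 against 46 UMIs, a ratio of 0.185 (0.0835 to 0.373). After thinning, Kcnj8 was seen in 0 of 9 against 6 of 8 cells and Abcc9 in 2 of 9 against 7 of 8. Pdgfrb differed less, at 641 against 1285 CPM. Rgs5, Notch3 and Ndufa4l2 were found at both ends, with 331 against 345, 44 against 40 and 34 against 36 UMIs. Scaled to depth, Rgs5 had a ratio of 0.819 (0.702 to 0.955), Notch3 0.939 (0.598 to 1.48) and Ndufa4l2 0.806 (0.489 to 1.32). In LPCAT3-AKO, Rgs5 had 8200 against 8210 CPM and Ndufa4l2 950 against 746 CPM. In control they had 4299 against 8557 CPM and 239 against 1029 CPM.

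Matrix genes split as well. Col4a1 had 1055 against 3613 CPM, and nidogen 1 (Nid1), which links laminin to collagen IV, 207 against 970 CPM. Lamb2, the laminin beta-2 chain, had 28 UMIs from 8 of 10 cells against 2 UMIs from 2 of 11, a ratio of 11.9 (3.01 to 103), and Eln, the elastin of elastic layers, 22 UMIs from 7 cells against 1 UMI. Npy1r followed the contractile end, with 35 UMIs from 8 cells against 4 from 4, a ratio of 7.47 (2.67 to 28.9). So did the level of Nr2f2, the nuclear receptor of venous identity, with 1034 against 267 CPM. However, 17 of the 50 UMIs lay in 1 cell. After thinning, Nr2f2 was seen in 6 of 9 against 5 of 8 cells, so its detection differed little between the ends. Fabp4 had 7593 against 24466 CPM.

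Immediate-early transcripts, which cells make within minutes of a stimulus, also differed between the ends. A sum of 21 immediate-early genes, formed after their values had been seen, came to 3600 CPM in cells with 2 or more Myh11 UMIs and 21581 CPM in cells at 0, a ratio of 0.167 (0.141 to 0.196). Per cell it took a median of 0.186% (0 to 1.70) of UMIs against 2.44% (0.155 to 6.55), so the ends overlapped. Egr1 had 103 against 3249 CPM and Fos 476 against 4146 CPM. Cxcl1, a neutrophil chemokine, had 4 against 53 UMIs, of which 28 lay in 1 LPCAT3-AKO cell. The part of cell handling and of depth in the contrast between the ends was not tested.

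**Figure D4:**
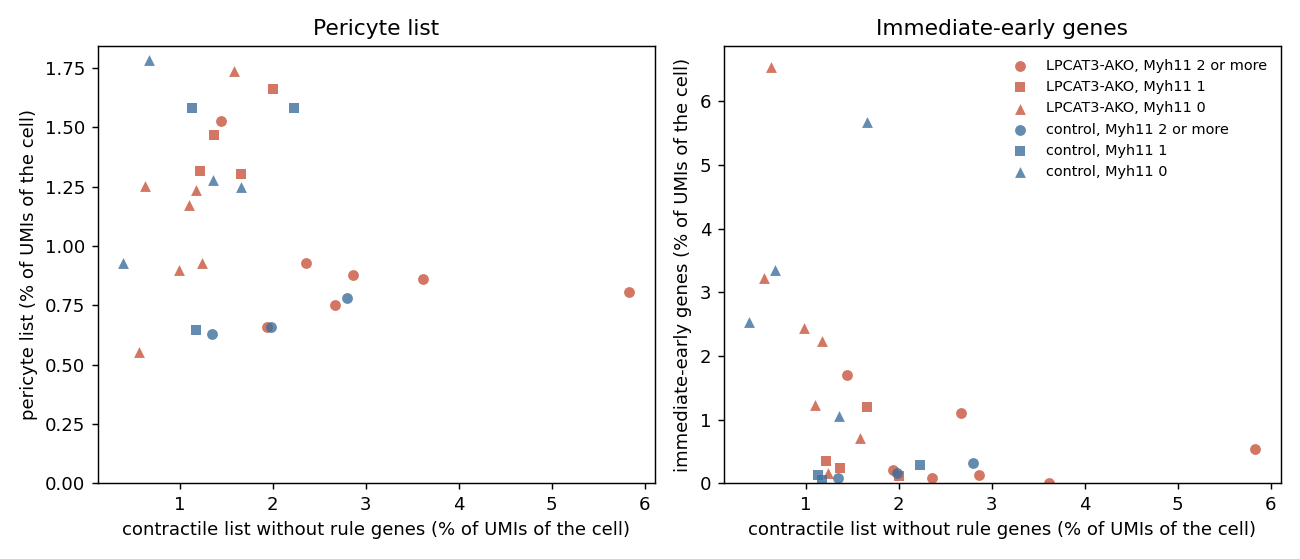
Each point is 1 mural cell, with colour for library and shape for Myh11 UMIs. The horizontal axis gives the percentage of its UMIs from the contractile list without rule genes. The vertical axes give those from the pericyte list, also without rule genes (left), and from 21 immediate-early genes (right). Cells with 2 or more Myh11 UMIs had 1.35% to 5.83% contractile UMIs and those at 0 had 0.390% to 1.66%, and both libraries contributed to both ends.

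The comparison of genotypes asked which genes differed between LPCAT3-AKO and control mural cells. Lpcat3 itself was too sparse to serve as a check, with 3 UMIs in LPCAT3-AKO (41.6 CPM, 8.59 to 122) and 2 UMIs in control (49.0 CPM, 5.93 to 177). In mixtures it stood at 53.9 and 52.7 CPM. A size rule took genes at 100 CPM or more in the higher library with a ratio of 2 or more and a counting interval that excludes 1. Of 2067 genes tested, 63 (3.05%) were higher and 70 (3.39%) were lower in LPCAT3-AKO mural cells. The same rule found 4 of 1783 (0.224%) higher and 4 (0.224%) lower in mixtures, whose summed UMIs came to 1613956 in LPCAT3-AKO and 1440901 in control. Of the 63 higher genes 46 had a ratio above 1 in mixtures too, and of the 70 lower genes 39 had one below 1. The same share over all tested genes was not taken, so these counts are no measure of agreement. The median log2 ratio in mixtures was 0.13 for the higher and -0.05 for the lower genes. Over all genes at 20 CPM in mixtures it was 0.02.

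Single cells weighed heavily. In 24 of the 63 higher and 66 of the 70 lower genes, more than 25% of the UMIs of the higher library lay in 1 cell. The same share over all 2067 genes tested was not taken, so these counts do not set the called genes apart. The deepest control cell held 25.4% of all control mural UMIs, and the deepest LPCAT3-AKO cell 13.7%. A limit of 25% was the condition for naming a gene, and with a control cell that deep it left few lower genes to name, which is a fault of the condition. Without the deepest cell of each library 113 genes were lower, with a sum of 1 for Acta2, Myh11 and Notch3 let in 118, and after thinning to 2000 UMIs 22 were higher. Mgp, the matrix Gla protein of vessel walls, shows the extreme: all 62 of its control UMIs came from 1 cell, against 13 UMIs from 2 cells in LPCAT3-AKO. It was chosen for mention after its values had been seen.

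In the contractile list without the rule genes Acta2 and Myh11, 4 of 19 members at 100 CPM were higher by the size rule (Tagln, Mustn1, Flna and Ppp1r14a) and none lower, beside 3.05% and 3.39% of all genes. List medians depend on the limit for low values: at 20 CPM in either library, 1 UMI is enough in control but not in LPCAT3-AKO. A limit of 10 UMIs over both libraries, chosen after seeing the data, does not have this fault. With it the median log2 ratio over 19 contractile members without rule genes was 0.47, with 18 of them above 0. Over all 2035 genes it was 0.05, with 1081 of them above 0. At 20 CPM the median of the whole list, rule genes included, was 0.71 over 26 members, against -0.08 over all 8176 genes. Tagln stood at 2873 CPM in LPCAT3-AKO and 1396 CPM in control, a ratio of 2.06 (1.53 to 2.81). Flna, the actin crosslinker filamin A, stood at 1152 and 563 CPM, a ratio of 2.05 (1.28 to 3.40). Ppp1r14a, an inhibitor of myosin phosphatase, had 25 UMIs in 9 LPCAT3-AKO cells, 28% of them in 1 cell, and 5 UMIs in 4 control cells. Myh11, a rule gene, had a ratio of 3.58 (1.98 to 7.0). Mustn1 had 24 UMIs from 4 LPCAT3-AKO cells, 8 of them in 1 cell, and 1 UMI in control. Ppp1r14a and Mustn1 thus lay over the limit of 25% in 1 cell set for naming. At that limit the median of the whole list was 0.18 in mixtures, in mural cells with at most 5% mitochondrial UMIs 0.45, and after thinning to 2000 UMIs 1.22. Cells with 2 or more Myh11 UMIs were 7 of the 18 LPCAT3-AKO and 3 of the 10 control cells.

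Other members of the contractile list had counting intervals that include 1. Tpm1 was at 1513 and 1396 CPM, a ratio of 1.08 (0.780 to 1.52), and Mylk, the myosin light chain kinase, at 1124 and 882 CPM, a ratio of 1.28 (0.851 to 1.94). Des, the intermediate filament desmin, was at 458 and 392 CPM.

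In the pericyte list the median log2 ratio was 0.20 at 20 CPM, with 15 of 28 members above 0, and -0.07 without rule genes at 10 UMIs over both libraries, with 10 of 23 above 0, so the list as a whole had no stable direction. Of its 23 members at 100 CPM without rule genes, 2 were higher and 1 lower by the size rule, beside 3.05% and 3.39% of all genes. Higd1b (ratio 3.68, 1.55 to 10.6) and Gucy1b1 (ratio 3.29, 1.26 to 10.9) were higher in LPCAT3-AKO, and Gja4, the gap junction protein connexin 37, was lower at 250 CPM against 563 CPM in control, with 47.8% of its control UMIs in 1 cell. Rgs5 had a ratio of 1.23 (1.06 to 1.42), but its log2 ratio was -0.07 after thinning to 2000 UMIs and 0.04 without the deepest cell of each library, against 0.29. Pdgfrb (0.864, 0.576 to 1.31), Abcc9 (0.951, 0.584 to 1.58) and Notch3 (1.21, 0.803 to 1.87) had intervals that include 1. Kcnj8 was at 194 CPM in LPCAT3-AKO and 416 CPM in control, a ratio of 0.467 (0.213 to 1.01), with 58.8% of the control UMIs in 1 cell. Heyl, a Notch target of mural cells, had 5 and 8 UMIs.

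**Figure D5:**
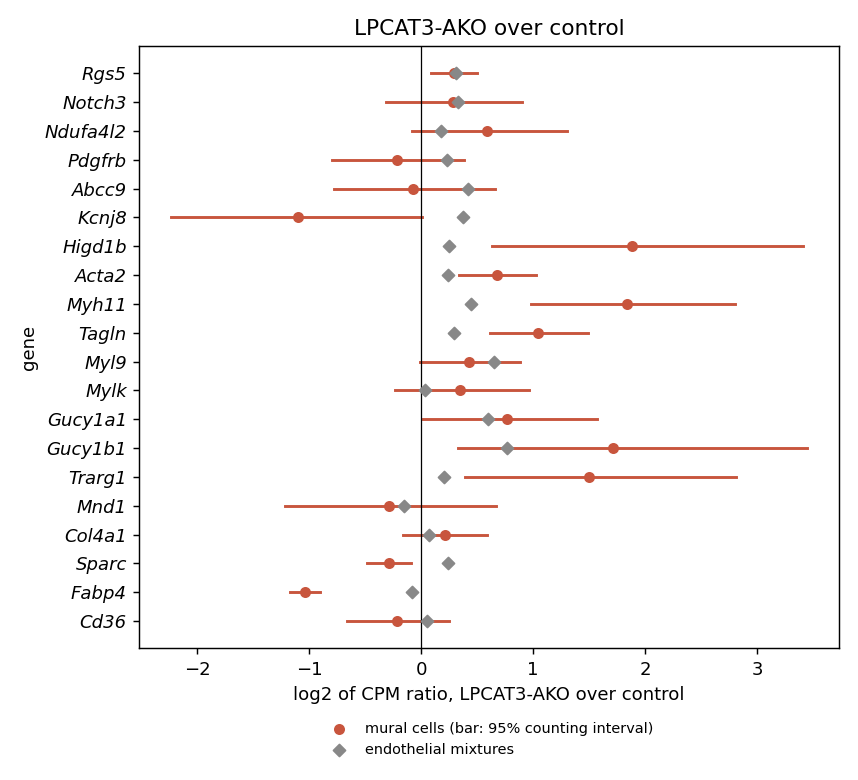
Circles give the log2 of the CPM ratio, LPCAT3-AKO over control, in mural cells, with 95% counting intervals, and diamonds the same in mixtures. Rgs5, Acta2, Myh11, Tagln, Higd1b, Gucy1a1, Gucy1b1 and Trarg1 lay above 0 with their intervals and Fabp4 and Sparc below. In mixtures every gene shown lay less than 1 away from 0, in either direction.

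In the adipocyte lineage list 3 of 9 members at 100 CPM were lower by the size rule and none higher, beside 3.39% and 3.05% of all genes. Each of the 3 (Fabp4, Lpl and Cebpd) had over 25% of its control UMIs in 1 cell. Fabp4 was lower in LPCAT3-AKO mural cells, with a ratio of 0.488 (0.445 to 0.536), whereas its ratio in mixtures was 0.943. The control cell with the most Fabp4 held 26.1% of the control UMIs. Lpl (lipoprotein lipase) had 333 CPM in LPCAT3-AKO and 686 CPM in control, and Cebpd, an early factor of fat cell formation, 305 and 637 CPM, with 42.9% and 42.3% of their control UMIs in 1 cell. Slc2a4 had a ratio of 7.37 (1.11 to 313) on 13 and 1 UMIs, and Trarg1 one of 2.83 (1.31 to 7.01). Irs2, an adaptor of the insulin receptor, had 5 and 16 UMIs, a ratio of 0.177 (0.0507 to 0.506), with 31.2% in 1 cell. Of the 25 genes of phospholipid acyl remodelling, to which Lpcat3 belongs, none reached 100 CPM, so differences in that pathway were not detectable at this depth.

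Beyond the lists, the genes named by size of ratio among those spread over cells were almost all sparse. Stac, an adaptor of muscle calcium channels, had 10 UMIs in 7 LPCAT3-AKO cells and none in control, at least 1.89-fold higher with a floor of 3 counts per library. Adipor1 (an adiponectin receptor), Dnajb4 (a heat shock co-chaperone), Smg5 (a factor of nonsense-mediated decay) and Nr1d2 (the clock repressor REV-ERB beta) had 9 UMIs each and none in control, at least 1.70-fold higher. Egln1, the oxygen-dependent hydroxylase of hypoxia-inducible factors, had 14 and 1 UMIs, a ratio of 7.93 (1.21 to 336). Mier1, Eloc and Olfr558 had 12 or 13 UMIs against 1. Of the 4 lower genes that could be named, H2-D1, a class I histocompatibility chain, had 167 CPM in LPCAT3-AKO and 392 CPM in control mural cells, against 1375 and 1422 CPM in endothelial cells. Errfi1, a feedback inhibitor of the EGF receptor, had 291 and 588 CPM, Pnrc1, a nuclear receptor coactivator, 222 and 465 CPM, and Wdr26, a subunit of a ubiquitin ligase, 3 and 8 UMIs. In mixtures the ratios of Eloc, Pnrc1 and Wdr26 lay on the other side of 1.

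Lists of signalling and stress gave no single direction. The interferon genes had a median log2 value of -1.22 over 26 members at 20 CPM, but it was -0.89 over 12 members at 10 UMIs over both libraries, -0.73 after thinning, -0.70 without the deepest cell of each library, -0.03 at 5% mitochondrial UMIs and -0.04 in mixtures. Of 11 members at 100 CPM, 2 were lower by the size rule (Ifitm1 and H2-D1), beside 3.39% of all genes, and none higher. Ifitm1 had over 25% of its control UMIs in 1 cell. Ifitm3, an antiviral membrane protein, was at 1152 CPM in LPCAT3-AKO and 2253 CPM in control, a ratio of 0.511 (0.375 to 0.696), and B2m, the class I light chain, at 527 and 637 CPM. Among transcription factors, Mef2c, a driver of muscle genes, had 32 UMIs in 15 LPCAT3-AKO cells and 5 UMIs in 3 control cells, a ratio of 3.63 (1.4 to 11.9), and it was at 379 and 323 CPM in mixtures. Of 25 immediate-early and heat shock genes at 100 CPM, Nr4a2 and Hsp90aa1 were higher by the size rule in LPCAT3-AKO, Nr4a2 with 81.8% of its UMIs in 1 cell. Egr1, Jun and Atf3 were lower, with 48.9%, 48.8% and 65.2% of their control UMIs in 1 cell. Over all genes tested, 3.05% were higher and 3.39% lower. The division gene Mki67 had no UMI in any mural cell.

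In the mixtures the 8 genes past the size rule were of other kinds. The haemoglobin genes Hba-a2, Hba-a1 and Hbb-bs were higher in LPCAT3-AKO with 52.8%, 51.9% and 50.7% of the UMIs in 1 cell, and Mgp was higher at 196 against 96 CPM in control, the opposite of its direction in mural cells. Cxcl2 was lower, at 44.0 CPM in LPCAT3-AKO and 112 CPM in control. Prlr and Krt19 owed 85.4% and 96.5% of their control UMIs to 1 cell. Gdpd3, a lysophospholipase D, had 1 UMI in LPCAT3-AKO and 195 UMIs in 54 of 96 control mixtures, a ratio of 0.00458 (0.000115 to 0.0258). In mural cells it had no UMI in LPCAT3-AKO and 1 UMI in control, and in endothelial cells 2.92 and 141 CPM.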

How the data were processed

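Each deposited matrix gives whole-number UMI counts for genes and barcodes, which the authors made with Cell Ranger 6.1.2 on mm10, per the submitters' processing notes; these also name Seurat 4.10. Each matrix lists 32285 genes, named here by symbol, and for 40 symbols held by more than one entry the entry with the most UMIs was used.

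CPM were computed from the summed UMIs of a group's cells, library by library. CPM carry exact Poisson, shares Clopper-Pearson and ratios exact binomial 95% intervals. PCR copies are collapsed by UMIs, and intervals and floors cover counting error only. Log2 ratios use CPM + 1, list medians take members at 20 CPM or more, and a gene without UMIs was given a floor of 3 counts per library or end. Doublets were scored by Scrublet in scanpy 1.11.5 per library; the top scores, 0.8% of kept cells per 1000 kept cells, were removed only as an alternative. With 1 library per genotype no test and no p-value was computed. The scripts were tested on simulated data with numpy 2.4.6, scipy 1.17.1 and Python 3.11.15.

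Genes named were the 5 given markers, the 20 highest contrasts with the comparison groups, the 10 highest and lowest genotype ratios without more than 25% of UMIs in 1 cell, and up to 8 members of each of 33 lists by level. The members of the group, the lists and the named rules were chosen with earlier results of these data known. Genes of the Myh11 comparison, members of lists below the 8 most abundant, and mixture genes were named after their values were seen. The study's bulk RNA sequencing was not analysed here.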

Additional observations from a re-analysis of the deposited data

How the results depend on the processing

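Lowering the Rgs5 minimum to 2, a Dcn limit of 3 and removal of top Scrublet scores left the same 18 LPCAT3-AKO and 10 control mural cells, and an Rgs5 minimum of 5 left 16 and 9. Adding the mixtures gave 3 higher and 4 lower genes by genotype, 4 genes past the contrast with the other groups, a contractile ratio of 1.63 between the Myh11 ends and a contractile median of 0.30. Mixtures alone, an alternative chosen after seeing the data, gave 4, 4 and 4 genes, 1.46 and 0.18. A sum of 1 for Acta2, Myh11 and Notch3, also chosen later, gave 118 lower genes and a contractile ratio of 2.80. At 1000 or more detected genes 112 genes were lower. At 5% mitochondrial UMIs the ratio of shares was 0.761, the contractile ratio 2.04 and the contractile median 0.45. With cells weighted alike and no interval condition, 474 genes were higher and 583 lower. Thinning to 2000 UMIs left 22 higher genes and a contractile median of 1.22. The Myh11 ends under other choices of cells were also computed after seeing the data. A contrast of 2 gave 108 mural genes. Without the deepest mural cell of each library 113 genes were lower. The cause of these shifts was not tested.

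The log2 ratios of Eloc, Wdr26 and Pnrc1 turned round with mixtures added (-0.17, 0.19 and 0.069) and in mixtures alone (-0.24, 0.25 and 0.10). The alternatives that left the same mural cells (Rgs5 minimum of 2, Dcn limit of 3, Scrublet removal) return the main values by construction. They are included in the counts that follow, for genes and for lists, and are no evidence of stability. Of 228 values of 19 named genes under the alternatives, 211 lay within the counting interval of the main value, 11 outside it (Rgs5 after thinning at -0.07) and 6 reversed. Those intervals are wide, and 130 lay within 0.25 of the main log2 value. Of 126 list medians, 88 stayed within 0.25 of the main value. That of the Notch pathway, -0.23, was 0.22 with mixtures added and 1.68 after thinning, and that of nitric oxide and cyclic GMP genes, 0.56, was -0.13 with cells weighted alike. No paired analysis was possible because each genotype has 1 library. At 72047 and 40834 summed UMIs, small differences in genes of a few UMIs were not detectable.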
